A study of Mus musculus with 6 samples.

Results

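Tumor necrosis factor (TNF) and interleukin-1 (IL-1) are the cytokines that resident macrophages release first in inflammation. The 10 genes described here encode TNF (Tnf), its receptors (Tnfrsf1a and Tnfrsf1b), the IL-1 family ligands IL-1α, IL-1β and IL-18 (Il1a, Il1b and Il18), the IL-1 receptor antagonist (Il1rn), the signaling IL-1 receptor (Il1r1) and a pair of inflammasome components (Nlrp3 and Casp1). They were taken from the deposited table by their gene symbols, not by their values. All 10 were found among its 26789 genes, and all 10 reached a mean of 10 normalized counts, the level from which 18007 genes were tested.

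The libraries held RNA of microglia, the resident macrophages of the brain, from the rostral nucleus of the solitary tract (NST), the brainstem relay of taste input, of C57Bl/6 mice on P15. In the controls, labeled Control Diet (Maternal), the dams ate standard chow throughout. In the E3–E12 diet group, labeled Low Sodium Diet (Maternal), the dams were sodium restricted only from E3 to E12 of gestation, so that the pups themselves were on ordinary chow from then on. There were 3 libraries per group, each made by pooling the NST of littermates of both sexes from 1 litter, so a library stands for a litter and not for a mouse. No other treatment or transgene is named for these libraries in the sources used here. The study's methods describe sorting on magnetic beads against CD11b after enzymatic dissociation and amplification of the RNA, whereas the labels name laser microdissection and no amplification step, so the isolation is uncertain. All 10 microglial markers, among them Cx3cr1, P2ry12 and Tmem119, were above 0 in every library. Markers of other cell types were present too, unevenly between libraries. Their sums ran from 4422 to 41068.5 normalized counts for oligodendrocytes, 58.0 to 40082 for choroid plexus and 1731 to 9119 for astrocytes. Those of microglia ran from 101719 to 505147. The part of these other cells in the values of the 10 genes was not tested. The totals of the libraries ranged from 9407141 to 14656956 normalized counts, apart from control replicate 2. That library stood apart, with a total of 17204618, the most genes listed at 0 (10640, against 3459 to 7135 elsewhere) and the highest summed microglial markers.

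TNF is made as a membrane protein that is shed by a protease and acts through TNFR1, which can drive inflammation or cell death, and TNFR2, which is found mainly on immune and endothelial cells. IL-1α and IL-1β both act through IL-1R1 and are blocked by the receptor antagonist. IL-1β and IL-18 are made as inactive precursors that caspase-1 cuts once it has been activated in an inflammasome such as that of NLRP3, so that the RNA level says little about the secreted cytokine. In brain tissue, microglia are a main source of TNF and both forms of IL-1, and TNF takes part in the scaling of synapses.

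Tnf, Il1a and Il1b, the ligands with the highest levels, are the members on which the comparison of the cytokines rests, and the bases just before their start sites are shown because they share an element with each other. The RefSeq start sites of all 10 genes gave 14 promoters, read on GRCm38.p6, and the 250 bases before the start were searched on both strands. TATAAA, the TATA box letters, is in capitals in the sequences below, which run 5′ to 3′ on the coding strand. All 3 genes lie on the minus strand, Tnf at chr17:35202008-35202257, Il1a at chr2:129309973-129310222 and Il1b at chr2:129371140-129371389.
Tnf: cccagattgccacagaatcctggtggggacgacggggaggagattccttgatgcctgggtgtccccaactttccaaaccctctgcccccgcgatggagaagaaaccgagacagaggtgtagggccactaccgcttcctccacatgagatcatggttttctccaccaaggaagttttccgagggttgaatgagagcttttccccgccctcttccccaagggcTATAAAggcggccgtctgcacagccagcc
Il1a: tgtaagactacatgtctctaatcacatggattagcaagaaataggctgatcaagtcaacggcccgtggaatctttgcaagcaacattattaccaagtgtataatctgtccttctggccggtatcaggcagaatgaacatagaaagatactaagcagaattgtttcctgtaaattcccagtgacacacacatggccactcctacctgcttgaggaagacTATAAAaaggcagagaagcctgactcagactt
Il1b: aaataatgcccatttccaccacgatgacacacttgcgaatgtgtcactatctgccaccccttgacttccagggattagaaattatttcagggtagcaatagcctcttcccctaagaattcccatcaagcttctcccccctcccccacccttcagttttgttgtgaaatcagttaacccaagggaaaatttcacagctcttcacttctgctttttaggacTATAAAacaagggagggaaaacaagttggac
The TATAAA stood 29 bases before the start of Tnf, 32 before that of Il1a and 31 before that of Il1b, while 12.4% of 32851 promoters of the same length held these letters anywhere on either strand. Of the other members, Il18 had them on the opposite strand, 175 bases before its start. The AP-1 letters TGANTCA, present in 6.75% of all promoters, were found 12 bases before the start of Il1a, and also 141 bases before one start of Il1rn. The CRE letters TGACGTCA, held by 1.55% of promoters, were in none of the 14. The NF-kB consensus (3.9% of promoters) matched 1 promoter of Il1r1 and 1 of Nlrp3 only. These matches describe letters, binding was not measured, and a missing match says only that those letters are not in this window.

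Tnf stood out among the 10 genes, as each of the diet libraries lay above all of the controls. In the order of replicates 1, 2 and 3, which is kept below, the controls had 1083, 1012 and 825 normalized counts and the diet libraries 2342, 1789 and 4982. The controls lay close together, whereas the diet libraries were spread, with replicate 3 far above the others. The means were 973 ± 133 in controls and 3038 ± 1707 in diet mice (SD, n = 3 libraries each). The log2 fold change, here and below that of log2(normalized count + 1) with the diet group minus the controls, was 1.51 (standard error 0.51, 95% confidence interval 0.39 to 2.63), a 2.85-fold difference. It did not pass the test across all genes (limma with Benjamini-Hochberg adjustment, adjusted p = 0.999). The study's own test of the reads, DESeq2 with an adjusted p under 0.1, lists Tnf as upregulated in E3–E12 diet mice. That count test was not run here. The unadjusted p was 0.0129 by limma, which put Tnf at rank 40 of 18007 genes, and an exact permutation test, two-sided, gave p = 0.1, the smallest that 3 libraries against 3 allow. Of all genes tested, 11.2% had a log2 fold change at least as high as that of Tnf. The log2 fold change was 1.08 when E3–E12 diet replicate 3 was left out and 1.39 when control replicate 3 was left out, and in both fits the unadjusted p by limma across all genes exceeded 0.05 (0.0755 and 0.0505). In bulk RNA of this kind, a difference in the number of cells of a type and a difference in RNA per cell cannot be told apart. Tnf lies at chr17:35199381-35202007 of GRCm38, and none of the 50-base windows of its exons recurs in another annotated gene.

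Set against the whole table, Tnf was the single member of the 10 with an unadjusted p under 0.05 by limma, a class that held 1.49% of all genes (268 of 18007). It was also the single member whose groups did not overlap, as was the case for 5.9% of all genes, 2.99% with the diet libraries higher and 2.91% with them lower. Its log2 fold change of more than 1 was found in 19.3% of all genes. For an adjusted p under 0.1, the study's threshold, the count by limma was 0 of 10 members and 0% of all genes. By mean log2 level, 4 members were higher and 6 lower in diet mice, so 40% were higher, against 54.4% of all genes. The median log2 fold change of the 10 members was -0.073, against 0.087 over all genes, and their median standard error was 0.59 against 0.90.

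**Figure D1:**
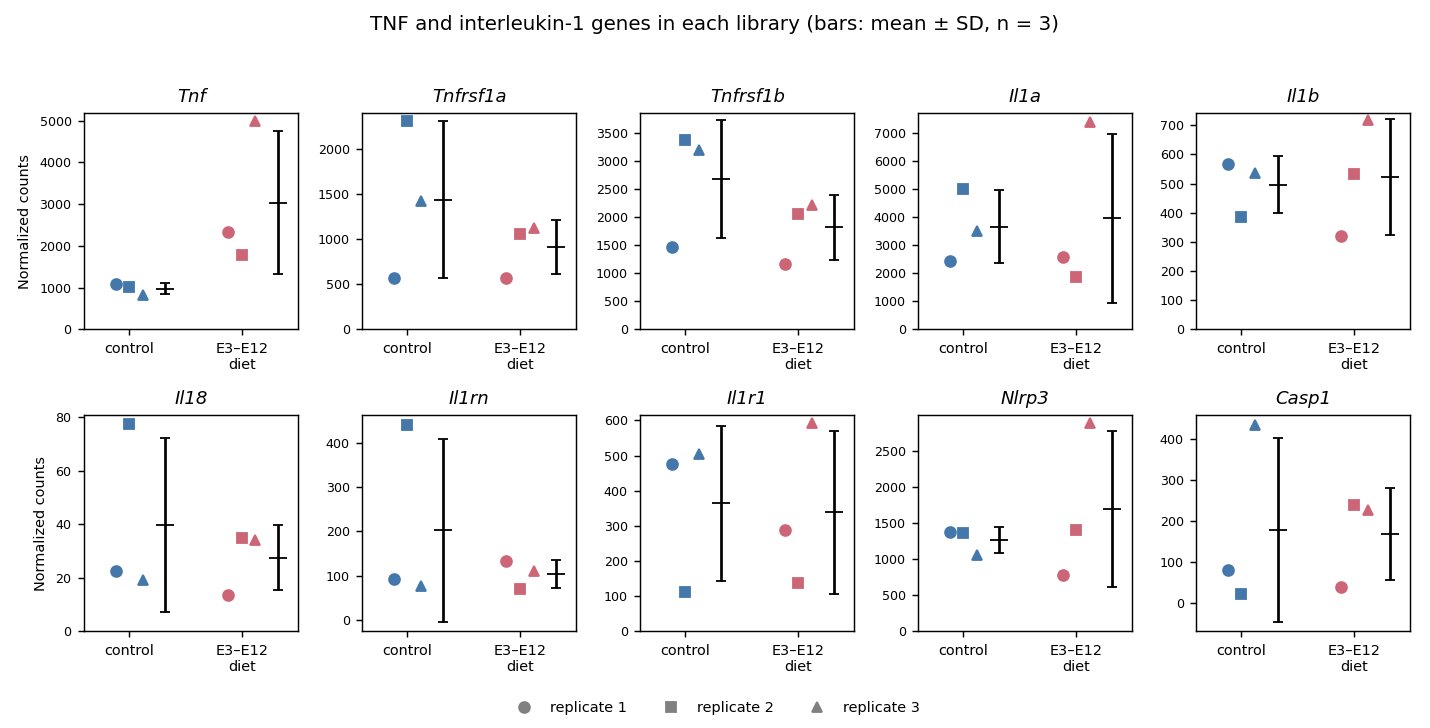
Normalized counts of the 10 genes (y axes, linear and of different range) in the 3 control and 3 E3–E12 diet libraries (marker shapes give the replicate number), with bars for the mean ± SD. The Tnf panel alone shows groups that do not overlap, with controls between 825 and 1083 and diet libraries between 1789 and 4982.

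The TNF receptors did not share the pattern of their ligand. Tnfrsf1a, which encodes TNFR1, had 570, 2314 and 1426 normalized counts in the controls against 574, 1056 and 1123 in the diet libraries. Tnfrsf1b, which encodes TNFR2, had 1462, 3372 and 3187 in the controls against 1162, 2059 and 2222 in the diet libraries. Both genes were lowest in the replicates numbered 1 and highest in control replicate 2, and the groups overlapped. The log2 fold change was -0.49 for Tnfrsf1a (standard error 0.59) and -0.52 for Tnfrsf1b (standard error 0.52), each with an adjusted p of 0.999 by limma. The sign stayed negative with each library left out in turn, from -1.04 to -0.035 for Tnfrsf1a and from -0.91 to -0.23 for Tnfrsf1b. The summed level of the 10 microglial markers was likewise lowest in both replicates numbered 1, with 103988, 505147 and 256399 normalized counts in the controls against 101719, 240866 and 316093 in the diet libraries, and its part in the receptor values was not tested.

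The proportion of the receptors to each other was close to constant in the diet libraries and varied in the controls. In the diet libraries there were 2.02, 1.95 and 1.98 normalized counts of Tnfrsf1b for each 1 of Tnfrsf1a, and in the controls 2.57, 1.46 and 2.23. The Pearson correlation of their log2 levels over the 6 libraries was 0.95, while that of Tnf was -0.26 with Tnfrsf1a and -0.37 with Tnfrsf1b. These coefficients describe 6 points in which every gene shares the library, its scaling and its cell makeup.

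Of the IL-1 ligands, Il1a had the highest level and no steady difference between the diets. Il1a had 2420, 5010 and 3517 normalized counts in the controls against 2586, 1872 and 7391 in the diet libraries, so that the diet group held both the lowest and the highest library. Its log2 fold change was -0.084 (standard error 0.59), and the sign depended on single libraries (0.18 without control replicate 2, and 0.090, 0.32 and -0.67 without E3–E12 diet replicates 1, 2 and 3 in turn). Il1b, the form of IL-1 that needs cutting to be active, had 568, 386 and 535 normalized counts in the controls against 321, 532 and 719 in the diet libraries. The means nearly coincided, with 496 ± 97.0 in controls and 524 ± 199 in diet mice (SD, n = 3 libraries each). For Il1b the log2 fold change was 0.022 (standard error 0.53), and its 95% confidence interval of -1.14 to 1.18 does not exclude a doubling or a halving.

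Both IL-1 genes are overlapped by genes on the opposite strand, and the strandedness of the counting is not given in the sources used here. The exons of Il1a (chr2:129299610-129309972, minus strand of GRCm38) overlap those of Gm14023, which was listed with 1091, 1640 and 2413 normalized counts in the controls against 1126, 1043 and 2588 in the diet libraries. Il1b (chr2:129364570-129371139, minus strand) overlaps Il1bos, an antisense RNA with 206, 6.90 and 181 normalized counts in the controls against 216, 199 and 161 in the diet libraries. Without strand, reads from the stretches that a gene shares with its partner could not be told apart. The length of these stretches was not measured, and the levels of Il1a and Il1b are uncertain to that extent.

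Il18, which encodes the ligand that promotes interferon-γ release by lymphocytes, was the member with the lowest counts. It had 22.6, 77.4 and 19.3 normalized counts in the controls against 13.5, 34.9 and 34.0 in the diet libraries. Control replicate 2 was the highest, and the other libraries of both groups were mixed in order. The log2 fold change of -0.35 had a standard error of 1.14, and it became 0.26 when control replicate 2, and 0.081 when E3–E12 diet replicate 1, was left out.

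The antagonist and the signaling receptor of IL-1 also overlapped between the groups. Il1rn had 91.7, 442 and 75.8 normalized counts in the controls against 132, 69.3 and 109.8 in the diet libraries. All libraries but control replicate 2 lay between 69.3 and 132, and without that library the log2 fold change of -0.53 (standard error 0.84) was 0.26. In the same library the summed neutrophil markers were also highest, with 656, 3637 and 482 normalized counts in the controls and 693 to 873 in the diet libraries. Of the 8 markers, 7 were above 0 in all libraries. Ly6g, which defines neutrophils, was at 0 in some libraries and reached at most 5.66 normalized counts, in control replicate 2. That library was highest for 7 of the 8 markers. The exception was Mpo, with 19.2 there and its highest value of 171.7 in E3–E12 diet replicate 1. The summed markers of monocytes had the same extreme (496 to 7541 normalized counts in controls and 253 to 2889 in diet libraries, 3 of 4 markers above 0 in all). In control replicate 2, however, Vcan alone made up 7286 of that sum, Plac8 was at 0 and Ccr2 was at 95.1, below its highest value of 190.0 in E3–E12 diet replicate 2. The part of either cell type in Il1rn was not tested. Il1r1 had 475, 111 and 505 normalized counts in the controls against 289, 137 and 592 in the diet libraries, with both replicates numbered 2 lowest. For Il1r1 the log2 fold change was -0.062 (standard error 0.77.) The summed markers of endothelial cells, 7 of 7 above 0 in every library, were lowest in the same libraries as a sum, with 13359, 5316 and 13292 normalized counts in the controls against 13363, 8713 and 13688 in the diet libraries, and their part in Il1r1 was not tested. The markers did not move together, since in control replicate 2 Flt1, Vwf, Cdh5 and Slco1a4 were at their lowest (9.61 to 95.4 normalized counts), while Cldn5 and Pecam1 were at their highest (1207 and 3154).

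Of the inflammasome genes, Nlrp3, the sensor, had 1370, 1361 and 1063 normalized counts in the controls against 782, 1409 and 2884 in the diet libraries. The controls lay within the range of the diet libraries, which held both the lowest and the highest level. The log2 fold change of Nlrp3 was 0.23 (standard error 0.55), and it was -0.26 without E3–E12 diet replicate 3. Casp1, the protease, had 79.1, 21.7 and 434 normalized counts in the controls against 38.5, 237 and 227 in the diet libraries. It was the most variable member, 20.0-fold apart between the lowest and the highest library, both of them controls. Its log2 fold change was 0.48 (standard error 1.13), and it was 1.60 without control replicate 3 and -0.53 without control replicate 2.

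**Figure D2:**
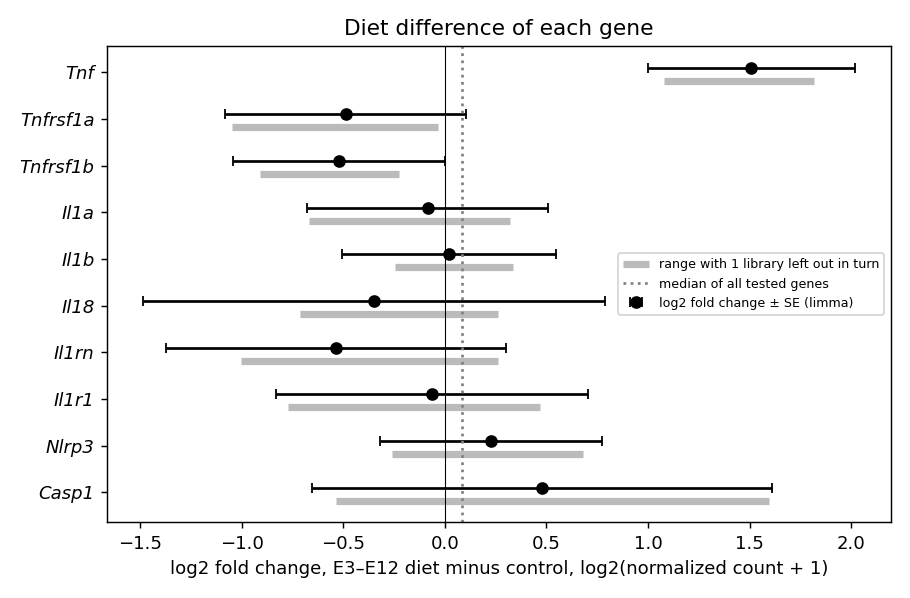
Log2 fold change of each gene (x axis, log2 of the normalized count + 1, diet minus control) with its limma standard error as a bar, and in gray the range with each of the 6 libraries left out in turn. Tnf ranged from 1.08 to 1.82, both TNF receptors stayed below 0 and the other 7 genes crossed 0.

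The extremes of the 10 genes were shared by few libraries. E3–E12 diet replicate 3 held the highest level of 5 members (Tnf, Il1a, Il1b, Il1r1 and Nlrp3), whereas it was highest for 13.2% of all genes. Control replicate 2 was highest for 4 members (Tnfrsf1a, Tnfrsf1b, Il18 and Il1rn), against 26.3% of all genes. With E3–E12 diet replicate 3 left out, 2 of the 10 members were higher in diet mice, against 4 with it. The list of 13 genes that respond to warm dissociation, such as Fos, Jun and Egr1, was above 0 throughout and summed to 111025, 353715 and 191711 normalized counts in the controls against 92620, 216226 and 161404 in the diet libraries. It was highest in control replicate 2, and its part in the values of Tnf and the other members was not tested.

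Within each library, Tnf was also compared with its partners, which removes the scaling of the library. For each normalized count of Il1a there were 0.447, 0.202 and 0.235 of Tnf in the controls and 0.906, 0.956 and 0.674 in the diet libraries. For each of Il1b there were 1.91, 2.62 and 1.54 in the controls against 7.29, 3.36 and 6.93 in the diet libraries. For each of Tnfrsf1b there were 0.741, 0.300 and 0.259 in the controls against 2.02, 0.869 and 2.24 in the diet libraries. The groups did not overlap in any of these 3 ratios, and on the log2 scale they differed by 1.59, 1.49 and 2.03. The ratio of Tnf to Tnfrsf1a overlapped, at 1.90, 0.437 and 0.579 in the controls against 4.08, 1.69 and 4.43 in the diet libraries. Exact permutation tests, two-sided, gave p = 0.1 for each of the 3 ratios and 0.2 for the ratio to Tnfrsf1a, or 0.3 and 0.45 after Benjamini-Hochberg adjustment over the 9 ratios computed. All of these ratios contain the same Tnf values and are not independent of each other. The ratio of Il1b to its antagonist Il1rn was 6.20, 0.874 and 7.06 in the controls against 2.43, 7.67 and 6.54 in the diet libraries, with the groups mixed.

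**Figure D3:**
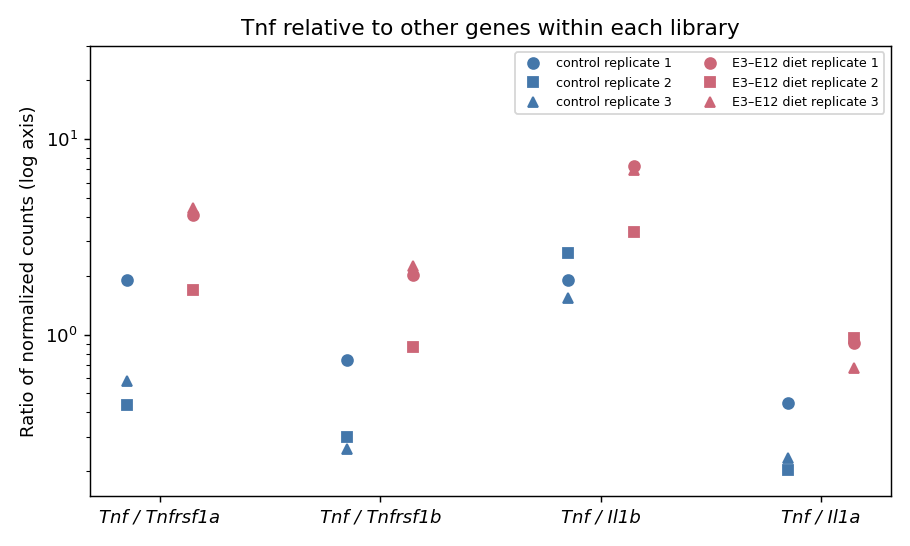
Ratio of the normalized counts of Tnf to those of 4 partner genes within each library (y axis, log scale), controls on the left of each pair and E3–E12 diet libraries on the right. The groups are separate for Tnfrsf1b, Il1b and Il1a, and overlap for Tnfrsf1a, where control replicate 1 at 1.90 lies above E3–E12 diet replicate 2 at 1.69.

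Levels between genes were compared per kilobase of exon (union of the annotated exons). The mean over the 6 libraries was 1925 normalized counts per kb for Il1a, 1224 for Tnf, 588 for Tnfrsf1b, 454 for Tnfrsf1a, 364 for Nlrp3 and 267.5 for Il1b. Casp1 followed with 116, Il1r1 with 55.2, Il18 with 32.6 and Il1rn with 27.7. Il1a and Il1b were above their receptor Il1r1 in every library, and both TNF receptors were among the most abundant members. Every pair of neighbors in this order had overlapping ranges, and the gene with the higher mean was above the next in 3 to 5 of the 6 libraries, so that none of these neighbors could be ordered beyond the spread. The place of Tnf came from the diet libraries, since in the controls its mean of 594 normalized counts per kb lay below the 700.2 of Tnfrsf1b, while in the diet libraries it was 1853 against 475.

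**Figure D4:**
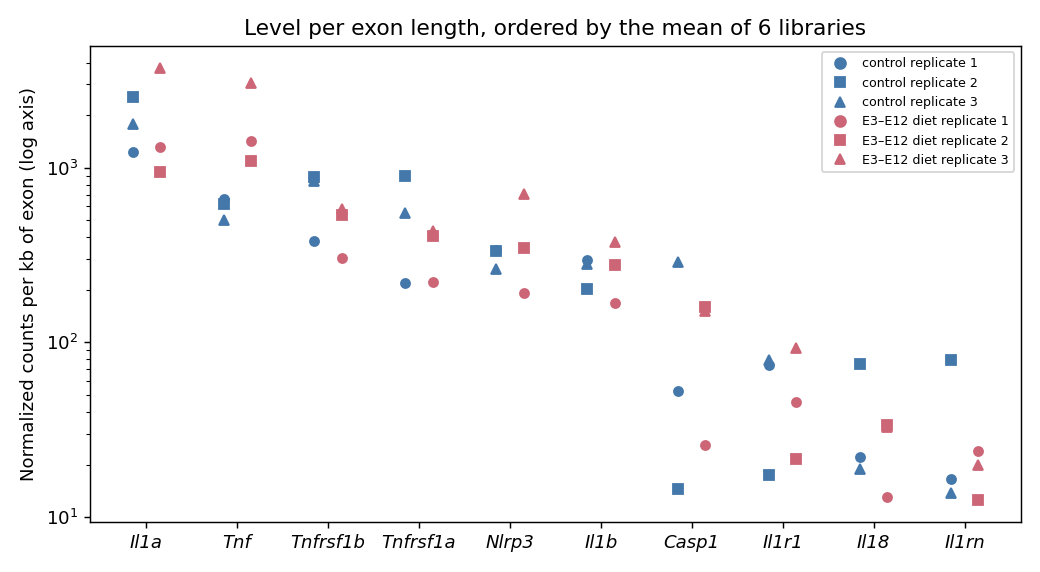
Normalized counts per kb of exon (y axis, log scale) of each gene in each library, with genes ordered by their mean over the 6 libraries. Means fall from 1925 for Il1a to 27.7 for Il1rn, and the ranges of all neighbors overlap.

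The genes most like a member in their pattern over the 6 libraries were sought among the 10091 genes that averaged 100 normalized counts or more and had none at 0. For Tnf they were Ap5z1 (Pearson r = 0.976), Gsr (0.975) and Cox8a (0.971), and 8 genes had an r of at least 0.95. Gsr, glutathione reductase, had 132, 53.0 and 59.0 normalized counts in the controls against 365, 221 and 1101 in the diet libraries. Il1b was most like Zfand1 (0.996), Kat2b (0.992) and Ino80e (0.981), with 23 genes at or above 0.95. Casp1 was most like Gspt1 (0.989), Snrpb2 (0.986) and Ndfip1 (0.983), with 41 such genes. With 6 points and this many genes searched, high coefficients are easily found, and all genes of a library share its depth and makeup.

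A wider list of the pathway gave no gene with an adjusted p under 0.1 (limma, 0 of 54 tested, and 0 with an unadjusted p under 0.05, against 1.49% of all genes). It held 60 genes, of which Il36g, Il18bp and Il23a were not analysed here and Lta, Sigirr and Il12b were below the minimum level. By mean log2 level, 24 (44.4%, against 54.4% of all genes) were higher and 30 lower in diet mice, and the median log2 fold change was -0.021 (median standard error 0.71). The groups did not overlap in 1 gene of the 54, against 5.9% of all genes, and that gene was Fadd, the adaptor that links TNFR1 complexes to caspase-8. Fadd had 169, 277 and 265 normalized counts in the controls against 330, 370 and 550.1 in the diet libraries (log2 fold change 0.81, standard error 0.55).

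By role, the TNF superfamily and shedding genes had 4 higher and 2 lower (median log2 fold change 0.069), with Tnfsf12, which encodes TWEAK, at the highest level per kb (log2 fold change 0.14, standard error 0.79). In the TNF receptor complex 3 were higher and 9 lower (median -0.35). Their most abundant gene was Tnfaip3, which encodes A20, a brake on NF-kB induced by TNF itself. It had 5625, 8209 and 5046 normalized counts in the controls against 7167, 6836 and 10589 in the diet libraries (log2 fold change 0.38, standard error 0.50). The kinases shared by TNF and IL-1 signaling were divided evenly (3 and 3, median 0.026), with Tab2, an adaptor of TAK1, the most abundant (log2 fold change -0.016, standard error 0.57).

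Other IL-1 family ligands and receptors had 4 higher and 3 lower (median 0.39), with Il1rl1, the IL-33 receptor, the most abundant (log2 fold change -0.027, standard error 0.71). The signaling complex of the IL-1 receptor had 2 higher and 6 lower (median -0.11), led in level by the kinase Irak1 (log2 fold change -0.12, standard error 0.48). The inflammasome genes had 6 higher and 6 lower (median 0.028). P2rx7, the ATP-gated channel that triggers NLRP3, was their most abundant gene, with 3086, 5704 and 4393 normalized counts in the controls against 1798, 10323 and 4877 in the diet libraries (log2 fold change 0.076, standard error 0.64). Nlrc4, also in this group, is listed by the study as upregulated in E3–E12 diet mice. It had 53.4, 39.8 and 79.1 normalized counts in the controls against 69.2, 415 and 301 in the diet libraries, and the groups overlapped. Its log2 fold change was 1.88 (standard error 0.86), with an unadjusted p of 0.0502 and an adjusted p of 0.999 by limma. Of the other pro-inflammatory cytokines tested, 2 were higher and 1 lower (median 0.33), with Osm, oncostatin M, the most abundant (log2 fold change 0.33, standard error 0.67).

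**Figure D5:**
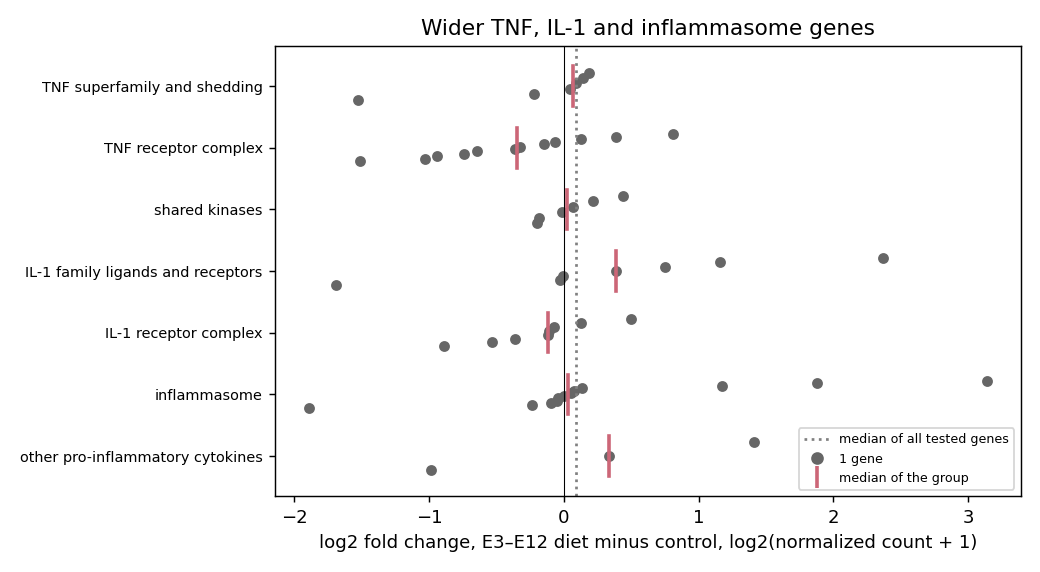
Log2 fold change (x axis, diet minus control) of the 54 tested genes of the wider list, by role, with a red tick at the median of each group and a dotted line at the median of all tested genes, 0.087. Group medians lie between -0.35 for the TNF receptor complex and 0.39 for other IL-1 family genes. The median standard error of a single gene is 0.71, which does not measure the uncertainty of a group median.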

How the data were processed

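Microglial libraries of 3 control and 3 E3–E12 diet litters were compared. The authors deposited 1 table of normalized counts per gene, a signal scaled between libraries, and the submitters' processing notes name FastQC, STAR, featureCounts, DESeq2 and GRCm38 without roles or versions. The table's name mentions surrogate variables, and how they were used is not given in the sources used here. Low values lay within 0.1 of a whole multiple of a library's own step for 62.8% to 78.7% of values, so whole reads were not recovered, no count test was run, and the reads behind each value are unknown. Columns of other samples numbered 0.

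Of 26789 Ensembl identifiers, 26507 matched a symbol. Genes with a mean of at least 10 were tested on log2(normalized count + 1), a scale that understates changes of low genes, with limma 3.58.1 (R 4.3.3; eBayes with a mean-variance trend, two-sided, Benjamini-Hochberg over 18007 genes). The fit was tested on simulated data. Single genes and ratios had exact permutation tests over libraries. Positions, exon lengths and 50-base windows came from GENCODE on GRCm38, promoters from RefSeq. Python 3.11.15, pandas 2.3.3, numpy 2.4.6, scipy 1.17.1 and matplotlib 3.10.9 were used.

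The members and lists were chosen with earlier results of these data known. All 10 members were named. Of the wider list, per role, the gene with the highest mean per kb was named, with any that had an unadjusted p under 0.05 or groups that did not overlap. Nlrc4 was added because the study lists it. For likeness, the 3 genes with the highest r were named for each of Tnf, Il1b and Casp1. Of the marker lists, genes at 0, leading genes and genes that departed from their list were named. Alternatives were a pseudocount of 10, no minimum level, a minimum of 100, quantile normalization, median-ratio rescaling, the replicate number as a block, leaving out each library, and, added after seeing the data, limma without the trend.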

Additional observations from a re-analysis of the deposited data

How the results depend on the processing

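The log2 fold changes and the counts of genes were recomputed under 13 alternatives (12 for Il18, which is under the minimum of 100), and the adjusted p of the 10 members by limma stayed between 0.869 and 1. Ratios, levels per kb, correlations and marker sums were not recomputed. Tnf stayed higher, and Tnfrsf1a and Tnfrsf1b lower, in diet mice under every alternative. In some alternatives this was fixed in advance. The replicate block, the fit without the trend and the changed minimum levels cannot move a log2 fold change, only its p-value. Median-ratio rescaling had the same factor, 1.015, for every library and so hardly moved it. The unadjusted limma p of Tnf was between 0.00369 with quantile normalization and 0.0482 without the mean-variance trend (an alternative chosen after seeing the data), and over 0.05 only without control replicate 3 or E3–E12 diet replicate 3. Over all genes, the number with an adjusted p under 0.1 was 0, and 0 to 1 with each library left out (1 without E3–E12 diet replicate 2 and 1 without E3–E12 diet replicate 3). The number with an unadjusted p under 0.05 by limma was 268 of 18007 genes, against 143 of the 10480 genes tested with a minimum mean of 100. It was 970 without control replicate 1 and 487 without control replicate 3, and the cause of these 2 differences was not tested.

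With quantile normalization the log2 fold change was 0.11 for Il1a, -0.016 for Il1b and -0.11 for Casp1, each of opposite sign to the value reported, and the cause was not tested. With each library left out in turn, the log2 fold change ranged from -0.67 to 0.32 for Il1a, -0.24 to 0.34 for Il1b, -0.71 to 0.26 for Il18, -1.0 to 0.26 for Il1rn, -0.77 to 0.47 for Il1r1, -0.26 to 0.68 for Nlrp3 and -0.53 to 1.60 for Casp1. Over the same fits, 2 to 6 of the 10 members and 15 to 34 genes of the wider list were higher in diet mice (4 and 24 with all libraries), both lowest without E3–E12 diet replicate 3. In the wider list, where 0 genes had an unadjusted limma p under 0.05, the number was 2 with the replicate block or without E3–E12 diet replicate 1, and 1 with a pseudocount of 10, with no minimum level, or without E3–E12 diet replicate 2 or 3.

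Both groups carry replicate numbers 1 to 3 in the labels, but same-numbered libraries come from different litters, and their deviations from the group means correlated across genes at 0.260, 0.0348 and 0.142, so the numbers were not taken as pairs. With the replicate block, 478 genes had an unadjusted p under 0.05 and 0 passed the adjusted threshold (smallest 0.979), and Tnf had an unadjusted limma p of 0.0130.

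The groups held 3 litters each, the median standard error of the members was 0.59, and the reads behind each value were unknown. Even a log2 difference of the size of that of Tnf (1.51) did not pass the adjusted threshold by limma. Smaller ones with a like standard error would not have passed it either. What the study's count test detects was not examined. Amplification, RNA quality and the sex makeup of each pool could not be examined from the table.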

Other observations

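Zfp36, a gene of the dissociation list that encodes tristetraprolin, an RNA-binding protein known to bind the AU-rich element of Tnf mRNA and promote its decay, had each of its 3 diet libraries below all of the controls. It was chosen for mention after its values were seen. The study's own test, DESeq2 with an adjusted p under 0.1, lists Zfp36 as downregulated in E3–E12 diet mice, and Atf3 of the same list as well. Groups that did not overlap, with the diet libraries lower, were found in 2.91% of all genes. Of the 13 genes of the dissociation list, Zfp36 alone had such groups. Log2 fold changes in that list ran from -2.20 for Atf3, whose groups overlapped, to 0.53 for Hspa1a, whose groups also overlapped. In the order of replicates 1, 2 and 3, the controls had 15393, 23123 and 36831 normalized counts of Zfp36 against 7034, 15108 and 6822 in the diet libraries. Its log2 fold change was -1.39 (standard error 0.61, limma adjusted p = 0.999, unadjusted p = 0.0419). It ranged from -1.77 to -1.07 over the fits that leave out 1 library. The highest Tnf (4982, E3–E12 diet replicate 3) and the lowest Zfp36 were in 1 library, and so were the lowest Tnf (825, control replicate 3) and the highest Zfp36. Whether these levels are related was not tested.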
